A study of Homo sapiens with 6 samples.

Results

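The interferon-stimulated effector genes examined here are 40 genes whose products carry out the antiviral and feedback work of the interferon response, taken by symbol from a fixed list. All 40 were found among the 17513 deposited genes, and 38 passed the filter on low counts and were tested. The list leaves out the OAS enzymes, the nucleic acid sensors and the IRF and STAT factors, of which some are given at the end as a separate pathway list. The data are polyadenylated RNA of 6 libraries in 2 groups of 3. The series text gives the cells as THP1-derived macrophages, THP1 being a leukemia line of human monocytes, which spent 48 h in medium taken from KYSE150 cells. KYSE150 is a line from a human squamous carcinoma of the esophagus, and its cells held shNC, the reference hairpin, or shSPP1#2, 1 hairpin against SPP1, the gene of the secreted glycoprotein osteopontin. The groups are called shNC medium and shSPP1#2 medium. No genotype differs between the macrophages themselves, both groups received tumor cell medium, and a macrophage group without it is not analysed here.

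Interferons bind receptors on the cell surface, whose kinases JAK1 and TYK2 activate transcription factors in the cell. With IRF9 these bind the interferon-stimulated response element, a short DNA motif in the promoters of its target genes. Some targets are nearly silent until interferon arrives, whereas others are transcribed at a basal level in macrophages. Their products bind viral RNA, trap virions at membranes, deplete nucleotides, modify proteins with ISG15 or ADP-ribose, and shut the receptor down again.

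The sample labels name KYSE150, whereas the RNA is that of myeloid cells. All 11 monocyte and macrophage markers reached 1 FPKM in each library, and their summed level ran from 2598 to 2802 FPKM in shNC medium and from 2528 to 2607 FPKM in shSPP1#2 medium. Of 10 squamous epithelial markers 0 reached 1 FPKM in every library, with sums of 0.77 to 0.92 and 0.69 to 1.15 FPKM. Of 5 plasmacytoid dendritic cell markers 4 were present, with sums of 22.26 to 24.99 and 21.4 to 23.3 FPKM. Of these 2, IL3RA and GZMB, reached 1 FPKM in every library and made up most of the sum. TCF4 lay near 1 FPKM, and CLEC4C lay between 0 and 0.09 FPKM. Of 5 T and NK cell markers CD3D, CD3E and CD2 were not among the deposited genes, and NKG7 and GNLY summed to 237 to 279 and 218 to 244 FPKM. A library held 18113591 to 20626346 estimated counts, lowest in shNC replicate 2, which also stood apart on the first principal component of all tested genes (22.5, against -10.5 to 1.63 in the others). The labels do not say whether replicates are separate cultures, and the p-values therefore measure no more than how these samples varied, which may be technical. In bulk RNA a lower level in each cell and a smaller share of expressing cells cannot be told apart.

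What most members share beside their induction by interferon is the core of the response element, spelled GAAA, then 2 bases of any kind, then GAAA, and searched on both strands, with overlapping matches counted separately. Promoter windows from RefSeq (GRCh38.p14), each 250 bases before to 50 bases after a transcript start, were found for 33 members. Those not matched were IFIT2, IFITM2, USP18, MX2, GBP2, PARP10 and TRIM22. At least 1 window held the core in 25 of the 33 members (75.8%) and at least 2 copies in 12 (36.4%). Among the other deposited genes with a window the core was present in 547 of 13942 (3.92%), and at least 2 copies in 37 (0.265%). Of all 35116 windows given by RefSeq, 3.57% held it. The 8 members without these letters in a window were XAF1, IFI35, TRIM25, SP100, SP110, SAMD9L, HERC6 and CMPK2. For 24 of the 25 the nearest copy began before the start, at a median of 53 bases over the 25, and for MX1 it began 11 bases after the start. A match is only a run of letters, and says nothing of binding in these cells.

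IFI6 and IFIT1 are shown first because they carry the same kind of element at widely different levels. Their means over the 6 libraries were 145 and 0.317 FPKM. The stretch of IFI6 is chr1:27672219-27672362 on the minus strand and that of IFIT1 is chr10:89392453-89392545 on the plus strand, each ending where the exons of the annotation begin. Both are written 5′ to 3′ along the gene, with matches in capitals. The copies in IFIT1 read as the reverse complement, since they lie on the other strand.
IFI6: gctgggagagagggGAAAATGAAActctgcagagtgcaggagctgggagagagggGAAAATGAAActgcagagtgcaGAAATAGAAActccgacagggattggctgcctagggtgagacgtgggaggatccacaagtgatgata
IFIT1: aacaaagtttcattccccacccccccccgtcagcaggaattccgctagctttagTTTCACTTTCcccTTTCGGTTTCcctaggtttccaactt

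Further members are shown as 30 bases around their first match. BST2 (chr19:17405738-17405767, minus strand), ISG15 (chr1:1013377-1013406, plus strand) and HERC5 (chr4:88456987-88457016, plus strand) each held overlapping copies that share one GAAA. IFI44L (chr1:78620274-78620303, plus strand) is the member of lowest level, and EPSTI1 (chr13:42992272-42992301, minus strand) had the second smallest p of all members. DTX3L (chr3:122564322-122564351, plus strand) is shown because its match, at 122564332 to 122564341, is also the match in a window of PARP9. PARP9 has another window, from 122564735 to 122565034, without a match. By the windows that hold the match these neighbours start 38 bases apart on opposite strands, at 122564338 for DTX3L and 122564300 for PARP9. Their proteins form one ubiquitin ligase complex.
BST2: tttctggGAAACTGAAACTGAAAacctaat
ISG15: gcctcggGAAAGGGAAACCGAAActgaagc
HERC5: attacagTTTCCTTTTCCTTTTCgattccg
IFI44L: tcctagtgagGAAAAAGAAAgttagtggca
EPSTI1: ctgattctgaGAAACCGAAActcagctgtt
DTX3L: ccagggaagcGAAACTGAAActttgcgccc

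The members did not share a common basal level. Levels are given as FPKM, fragments per length of gene and size of library, which allows genes to be set beside one another. By the mean over the 6 libraries 13 members lay under 1 FPKM, 16 from 1 to under 10, 9 from 10 to under 100, and 2 at 100 or over. All deposited genes divided among these classes as 37.1%, 30.7%, 28.1% and 4.05%. The median level was 3.13 FPKM over the members and 3.42 FPKM over all genes. The plot of FPKM by gene shows the 6 libraries close together for the abundant members and apart for those of low level.

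**Figure D1:**
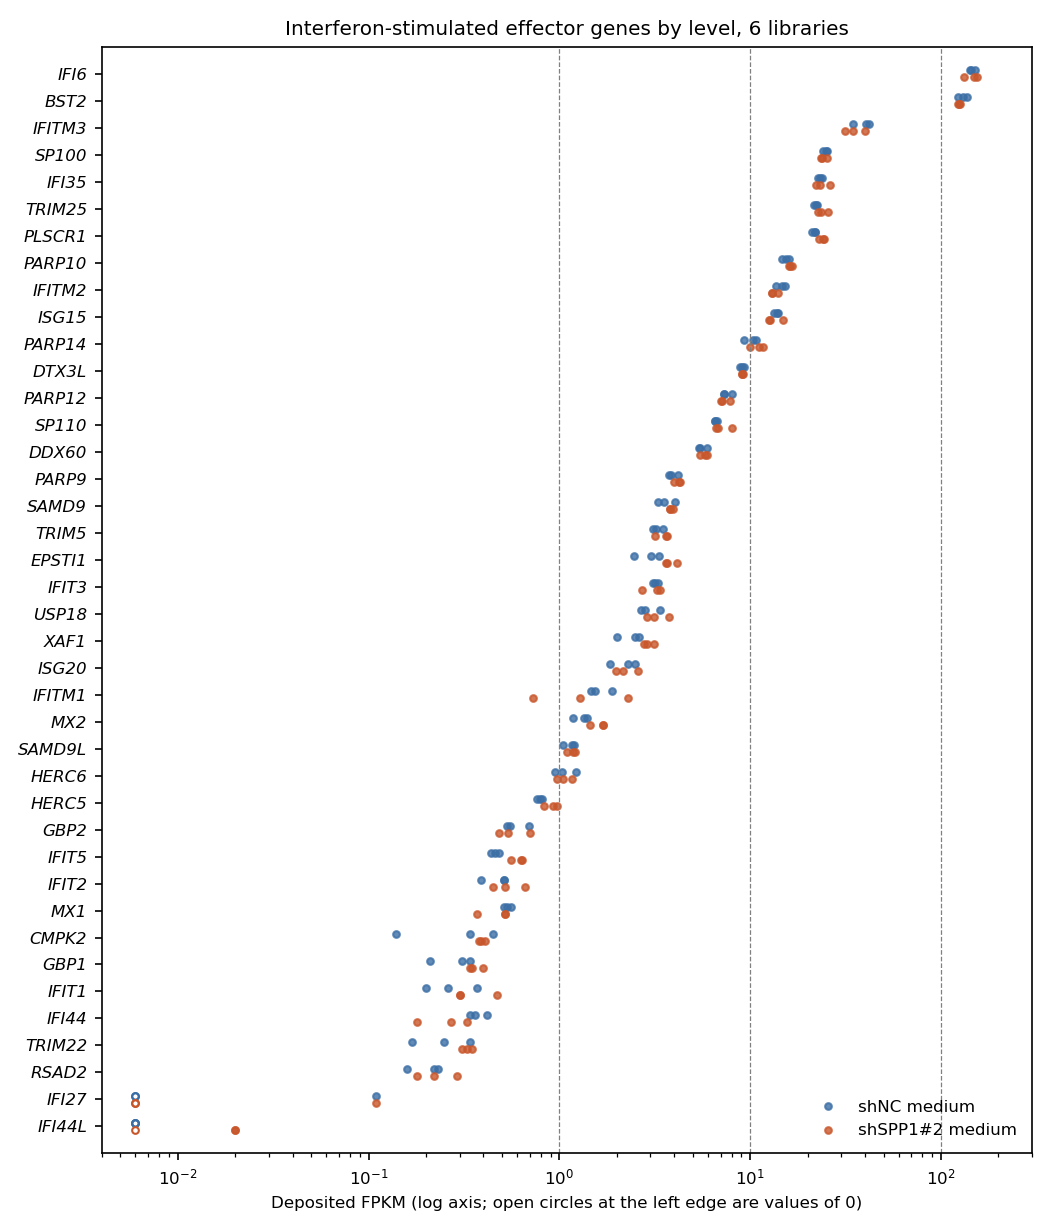
FPKM of the 40 members in each library on a log axis, ordered by their mean, with shNC medium in blue and shSPP1#2 medium in orange and values of 0 as open circles at the left edge; dashed lines mark 1, 10 and 100 FPKM. IFI6 and BST2 lie above 100 FPKM in every library, and IFI27 and IFI44L lie at or near 0.

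The most abundant members were IFI6 and BST2. IFI6, a small hydrophobic protein that restrains cell death, measured 151, 143 and 141 FPKM in shNC medium (replicates 1, 2 and 3, the order used throughout) and 155, 149.8 and 132 FPKM in shSPP1#2 medium. BST2, or tetherin, which holds budding virions to the cell surface, measured 130.1, 137 and 123 FPKM in shNC medium and 126, 123 and 125 FPKM in shSPP1#2 medium. In both genes the groups overlapped. IFI6 was higher than 97.3% and BST2 than 96.9% of all deposited genes, and the pair made up 50.9% to 53.2% of the summed FPKM of the 40 members in a library. That sum was 523 ± 10.02 FPKM in shNC medium and 522 ± 17.1 FPKM in shSPP1#2 medium (SD, n = 3 each).

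At the other end, several genes that are textbook markers of an interferon response were close to silent. IFI44L was listed at 0 in 4 libraries, with 1.56 and 2 estimated counts in shSPP1#2 replicates 1 and 2. IFI27, of the same protein family as IFI6, had 1 count in shNC replicate 1 and in shSPP1#2 replicate 1 and 0 in the other libraries. These 2 genes were not tested, and no fold is given for them at such counts. RSAD2, or viperin, which makes a chain-terminating nucleotide, measured 0.22, 0.16 and 0.23 FPKM in shNC medium and 0.22, 0.29 and 0.18 FPKM in shSPP1#2 medium. The RNA-cap sensor IFIT1 measured 0.26, 0.37 and 0.20 FPKM and 0.47, 0.30 and 0.30 FPKM. The dynamin-like GTPase MX1 measured 0.56, 0.51 and 0.53 FPKM and 0.52, 0.37 and 0.52 FPKM. All 3 overlapped between the groups in FPKM, and their counts were small, from 9.55 for RSAD2 to 41.1 for IFIT1.

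The number of element copies did not order the levels. Members with at least 1 copy ran from 0.0067 FPKM (IFI44L, 2 copies) to 145 FPKM (IFI6, 3 copies), with a median of 3.37 FPKM over 25. Those without ran from 0.352 to 24.5 FPKM, with a median of 4.75 FPKM over 8. Of the 12 members with at least 2 copies 5 lay under 1 FPKM and 2 lay above 100 FPKM. HERC5 and IFIT5 held 3 copies, as IFI6 did, at 0.848 and 0.535 FPKM.

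**Figure D2:**
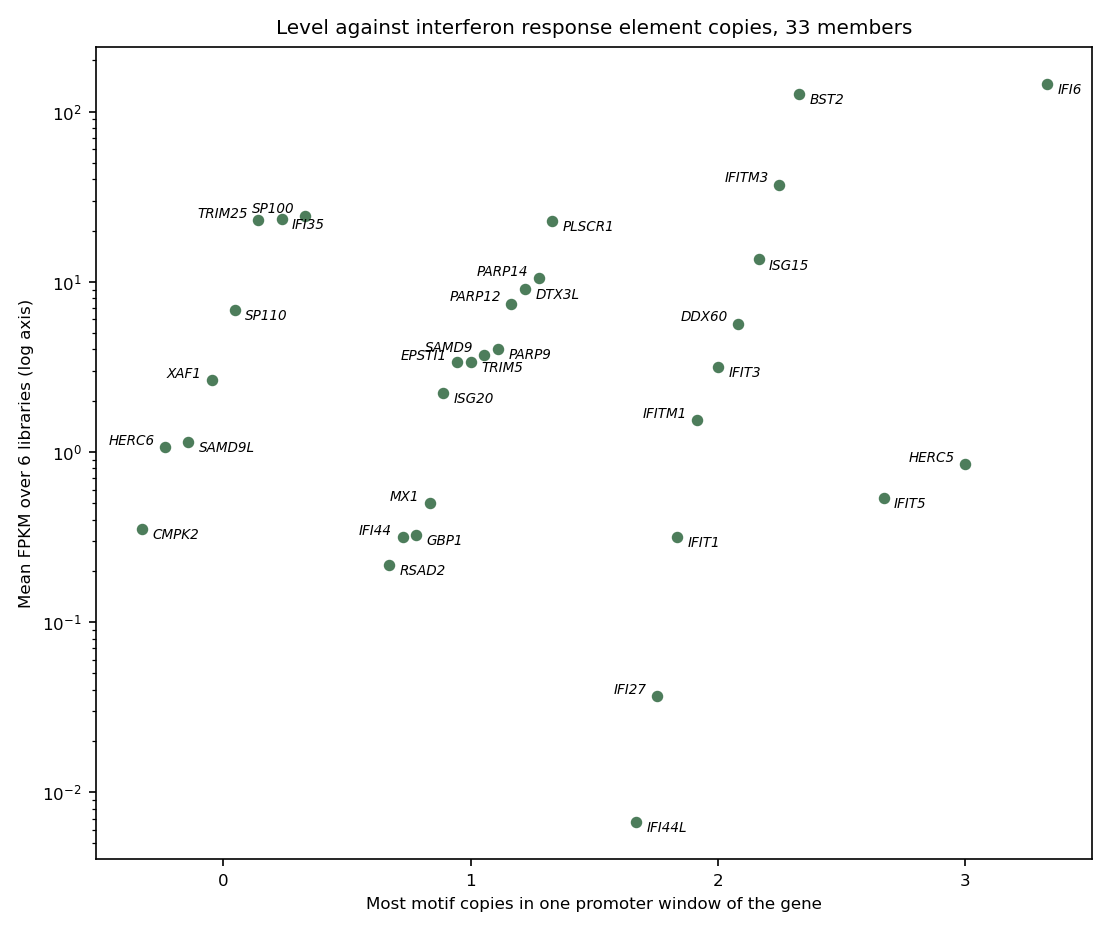
Mean FPKM over the 6 libraries (log axis) against the largest number of response element cores in one promoter window, for the 33 members with a window; each point is a gene, spread sideways by level within its column. The columns of 2 and 3 copies reach from 0.0067 to 145 FPKM, and the column of 0 copies from 0.352 to 24.5 FPKM.

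In the comparison of shSPP1#2 with shNC medium 0 of the 38 tested members were called by the edgeR quasi-likelihood test at an adjusted p below 0.05, as for all 13555 genes tested (0% called). The smallest adjusted p among the members was 0.601, that of XAF1. DESeq2 with its independent filter gave an adjusted p to 7 of the 38 members and called 0 of these, against 0.305% of the 4265 genes that had one. Without that filter all 38 had an adjusted p and 0 were called, against 0.0686% of 17480 genes. At an unadjusted p below 0.05 edgeR gave 5 members (13.2%), all higher in shSPP1#2 medium, against 6.85% of all genes in either direction and 3.45% in that direction. DESeq2 gave 2 at that threshold, against 2.88% of 17480 genes, a set without the low-count filter that the members had passed. On log2(FPKM + 1) limma gave 5 of the 32 members of at least 0.5 FPKM, against 6.64%. The log2 fold change was above 0 for 26 of the 38 members (68.4%), against 49.9% of all genes, and its median was 0.068 (1.05-fold), against -0.0003 over all genes. The members were chosen when an interferon list was already known to lean upward in these libraries, so their direction is no separate evidence.

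**Figure D3:**
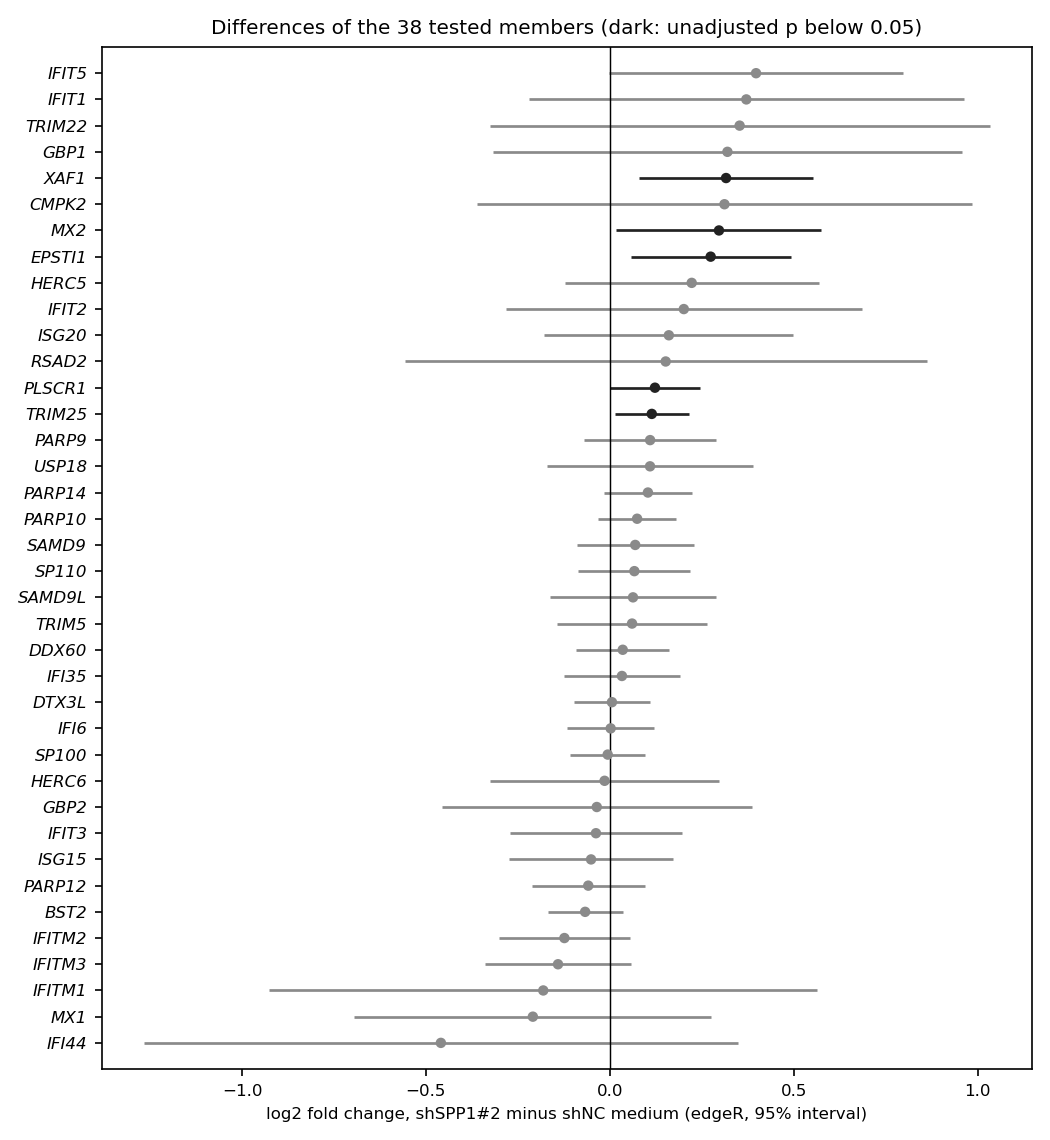
Log2 fold change of each of the 38 tested members, shSPP1#2 minus shNC medium, with its 95% interval from edgeR; dark points have an unadjusted p below 0.05. XAF1, MX2, EPSTI1, PLSCR1 and TRIM25 have intervals above 0, and intervals widen among the members of low level, as in IFI44 and TRIM22.

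The intervals cover only the variation among these libraries, which may be technical, and within that they bounded the difference for most members. The 95% interval of the log2 fold change lay within 0.25 of 0 for 13 members, within 0.5 for 25 and within 1 for 36. The median standard error was 0.085 for the 27 tested members of at least 1 FPKM and 0.282 for the 11 below. Among those of at least 1 FPKM the largest absolute log2 fold change was 0.32, that of XAF1, and the median was 0.060, with 18 of 27 above 0. For IFI6 the log2 fold change was 0.002, with an interval from -0.12 to 0.12. For SP100 it was -0.006 (-0.11 to 0.096) and for DTX3L 0.006 (-0.096 to 0.11).

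Which members lay below that threshold rested in part on single libraries. Without shNC replicate 1, 2 or 3 the count was 2, 2 and 5 of the 38 members, not the same ones each time. The shares of all genes in the same edgeR fits were 7.51%, 4.01% and 7.6%. Without shNC replicate 1 the members' share was thus below that of all genes. Without shSPP1#2 replicate 1, 2 or 3 the count was 3, 5 and 4 members, against 4.43%, 8.95% and 6.2%. All were higher in shSPP1#2 medium except IFITM3 and BST2 without shNC replicate 3 (log2 fold changes -0.22 and -0.11) and IFITM3 without shSPP1#2 replicate 1 (-0.24). PARP14, which is not among the 5, was below the threshold without shNC replicate 3 or shSPP1#2 replicate 2. No member was called in these 6 fits, against 0.0219%, 0.0146%, 0.0292%, 0.00728%, 0.0728% and 0.0146% of all genes. With no filter on low counts 4 members lay below the unadjusted threshold, against 6.49% of 17482 genes, those of low count included, and 0 were called, against 0.103%. With the replicate number as a block 6 members lay below it, against 10.8%, and 0 were called, against 0.435%. XAF1 was above it without shNC replicate 2 (edgeR unadjusted p = 0.076), as was EPSTI1 (0.067), and TRIM25 was above it without shNC replicate 1, shNC replicate 3 or shSPP1#2 replicate 1 (0.208 for the last). MX2 was below it in the fits without shNC replicate 2 or shSPP1#2 replicate 2, and PLSCR1 in the fit without shSPP1#2 replicate 3.

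XAF1 had the smallest p of the members. It encodes a protein that antagonises the caspase inhibitor XIAP and is induced by interferon in many cells. Its level was 2.61, 2.00 and 2.49 FPKM in shNC medium and 2.79, 3.12 and 2.89 FPKM in shSPP1#2 medium, so that every shSPP1#2 library lay above every shNC library. The means were 2.37 ± 0.323 and 2.93 ± 0.169 FPKM (SD, n = 3 each). The log2 fold change was 0.32 with a standard error of 0.11 and an interval from 0.080 to 0.55 (edgeR unadjusted p = 0.0113, adjusted p = 0.601). Its lowest value was in shNC replicate 2, without which the log2 fold change was 0.21. Exons of the gene PRAL on the opposite strand cover 38.3% of its exonic bases in GENCODE v29, and without strand the reads of that stretch cannot be assigned to either gene.

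EPSTI1, which encodes an interferon-induced protein first described in tumor and stromal cell co-culture, followed. It measured 3.02, 2.47 and 3.32 FPKM in shNC medium and 3.65, 3.62 and 4.12 FPKM in shSPP1#2 medium, again with no overlap. The means were 2.94 ± 0.431 and 3.80 ± 0.280 FPKM (SD, n = 3 each). The log2 fold change was 0.27 with a standard error of 0.10 (interval 0.056 to 0.49, edgeR adjusted p = 0.630), and it ran from 0.22 to 0.33 with single libraries left out. The gene length behind its FPKM, found by dividing counts by FPKM and library total, differed up to 1.24-fold between libraries, so the isoforms assumed were not the same in each.

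**Figure D4:**
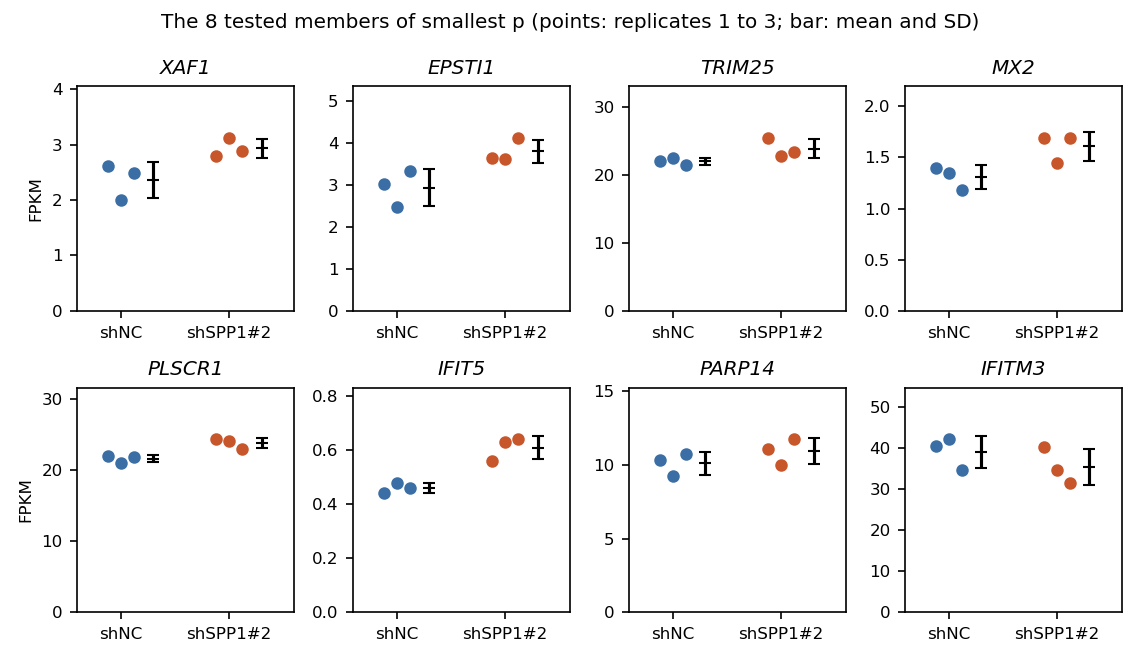
FPKM in each library for the 8 tested members of smallest p, with shNC medium in blue and shSPP1#2 medium in orange, replicates 1 to 3 from left to right in a group, and the mean with SD at the side; axes start at 0. The groups lie apart for XAF1, EPSTI1, TRIM25, MX2, PLSCR1 and IFIT5 and overlap for PARP14 and IFITM3.

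The other 3 members of unadjusted p below 0.05 act on RNA sensing, nuclear import of viruses and membranes. TRIM25, a ubiquitin ligase of the RIG-I pathway, measured 22.03, 22.5 and 21.5 FPKM in shNC medium and 25.5, 22.8 and 23.5 FPKM in shSPP1#2 medium. MX2, a GTPase at the nuclear pore that restricts lentiviruses, measured 1.40, 1.35 and 1.18 FPKM and 1.69, 1.44 and 1.69 FPKM. PLSCR1, a lipid scramblase of the plasma membrane, measured 21.9, 21.01 and 21.9 FPKM and 24.3, 24.1 and 22.9 FPKM. In each the groups lay apart by a narrow gap. The log2 fold changes were 0.11 (0.013 to 0.22) for TRIM25, 0.30 (0.018 to 0.58) for MX2 and 0.12 (0.0001 to 0.25) for PLSCR1, with edgeR adjusted p of 0.673, 0.696 and 0.729. On log2(FPKM + 1) MX2 measured 0.17, since the added 1 shrinks a gene of this level. TRIM25 measured 0.067 without shSPP1#2 replicate 1, its highest library.

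Groups did not overlap on log2 CPM, counts scaled to library size, for 9 of the 38 members (23.7%), against 11.1% of all genes. Of these 7 were higher in shSPP1#2 medium and 2 lower, where all genes gave 5.63% and 5.5%. The 7 were the 5 above with IFIT5 and HERC5, and the 2 were IFI44 and MX1. With 5 libraries fewer values can overlap, and the share of all genes is higher too. Without shNC replicate 1, 2 or 3 the number was 12, 10 and 19 members, against 23%, 18.2% and 23.1% of all genes. Without shSPP1#2 replicate 1, 2 or 3 it was 9, 14 and 17 members, against 18.3%, 25% and 21.4%.

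Libraries of a group differed among themselves. The median deviation of the 38 members from their own means was -0.032, -0.027 and 0.010 on the log2 CPM scale in shNC replicates 1, 2 and 3 and 0.074, 0.025 and 0.036 in the shSPP1#2 replicates. Over all tested genes the same medians lay between -0.0008 and 0.0037. Of the 38 members 13 had their lowest value in shNC replicate 2 and 13 their highest in shSPP1#2 replicate 1. The median log2 fold change was 0.047 without the former and 0.050 without the latter. shNC replicate 2 is the library of lowest total and of the extreme first component, and the part of this in the result was not tested.

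**Figure D5:**
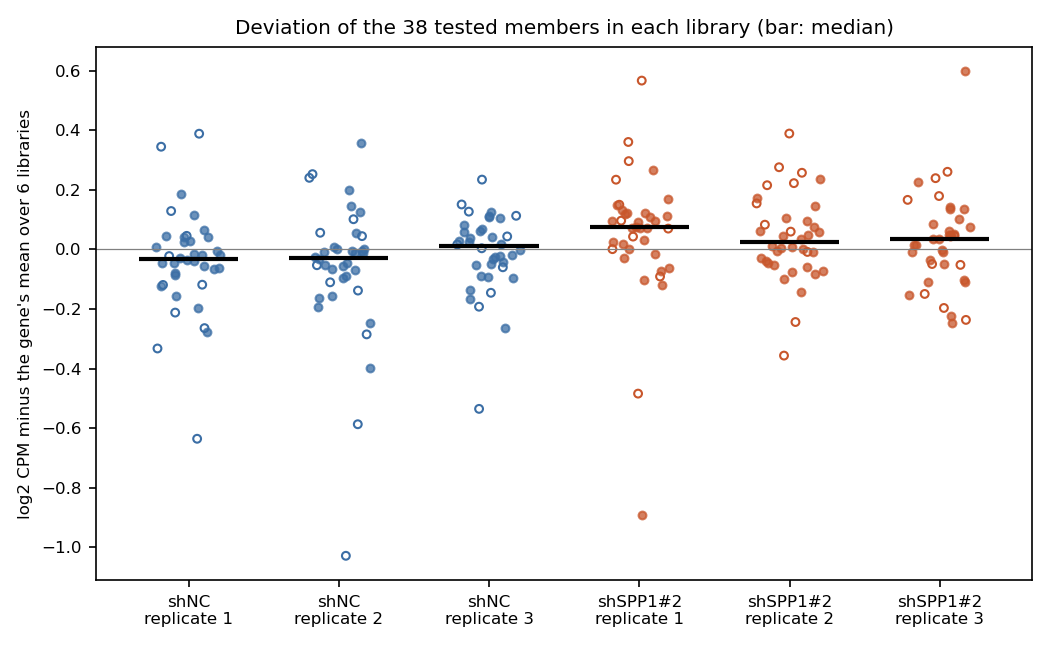
Log2 CPM of the 38 tested members minus each gene's mean over the 6 libraries, by library; filled circles are members of at least 1 FPKM, open circles those below, and the bars are medians. The medians run from -0.032 in shNC replicate 1 to 0.074 in shSPP1#2 replicate 1, while single members spread over a far wider range in every library.

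The RNA-binding IFIT proteins lie in one cluster on chromosome 10, where neighbours differed widely in level. IFIT3, the scaffold of the IFIT complex, measured 3.28, 3.10 and 3.17 FPKM in shNC medium and 3.38, 3.25 and 2.71 FPKM in shSPP1#2 medium, which is 9.94 times the mean of IFIT1 and 6.21 times that of IFIT2. IFIT2, an RNA-binding partner of both, measured 0.39, 0.51 and 0.51 FPKM and 0.66, 0.52 and 0.45 FPKM. IFIT5, which binds RNA with a phosphorylated end, measured 0.44, 0.48 and 0.46 FPKM and 0.56, 0.63 and 0.64 FPKM. IFIT5 was the member of the cluster whose groups lay apart, with a log2 fold change of 0.40 (-0.003 to 0.80, edgeR adjusted p = 0.732) from 34.6 to 52.0 counts per library. The log2 fold changes of IFIT1, IFIT2 and IFIT3 were 0.37 (-0.22 to 0.96), 0.20 (-0.28 to 0.68) and -0.038 (-0.27 to 0.20), and their groups overlapped. Of the other small interferon-induced proteins, the leucine zipper protein IFI35 measured 22.7, 23.1 and 23.7 FPKM in shNC medium and 23.1, 26.2 and 22.1 FPKM in shSPP1#2 medium. Its groups overlapped, with a log2 fold change of 0.033 (-0.12 to 0.19). IFI44, 3651 bases from IFI44L on chromosome 1, measured 0.42, 0.34 and 0.36 FPKM and 0.18, 0.33 and 0.27 FPKM, the largest negative log2 fold change at -0.46 (-1.27 to 0.35) from 6.73 to 14 counts.

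The ISG15 system was present at graded levels. ISG15, the ubiquitin-like modifier, measured 14.04, 13.9 and 13.4 FPKM in shNC medium and 12.5, 14.8 and 12.7 FPKM in shSPP1#2 medium, with a log2 fold change of -0.051 (-0.27 to 0.17). USP18, which removes ISG15 and damps the interferon receptor, measured 2.81, 2.68 and 3.38 FPKM and 3.76, 3.12 and 2.88 FPKM, with a log2 fold change of 0.11 (-0.17 to 0.39). Both overlapped between groups. HERC5, the main ligase for ISG15, measured 0.79, 0.81 and 0.76 FPKM and 0.93, 0.97 and 0.83 FPKM, with a log2 fold change of 0.22 (-0.12 to 0.57). Its neighbour HERC6 measured 1.22, 1.03 and 0.95 FPKM and 0.97, 1.05 and 1.16 FPKM, with -0.014 (-0.33 to 0.30). HERC5 and HERC6 thus stood at like levels on chromosome 4 (1.25-fold apart), with groups apart in the former and overlapping in the latter. Of the 31-base words in USP18 transcripts 30.8% also occur in those of other genes, mostly USP41, so its estimated counts depend on how reads were divided.

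The 4 GTPases had a median level of 0.542 FPKM. MX2 and MX1 lie next to each other on chromosome 21, with means of 1.46 and 0.502 FPKM and log2 fold changes of 0.30 and -0.21 (-0.69 to 0.28). The guanylate-binding proteins, which coat bacteria and their vacuoles, were low. GBP1 measured 0.31, 0.21 and 0.34 FPKM in shNC medium and 0.40, 0.35 and 0.34 FPKM in shSPP1#2 medium, and GBP2 measured 0.53, 0.69 and 0.55 FPKM and 0.54, 0.48 and 0.70 FPKM. Neither pair of groups lay apart on log2 CPM, and the intervals ran from -0.32 to 0.96 for GBP1 and from -0.46 to 0.39 for GBP2. GBP1 shares 18.4% and GBP2 12.3% of their transcripts' 31-base words with other genes.

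Effectors on nucleotides and RNA all had log2 fold changes above 0, 6 of 6, with a median of 0.11 and none at an unadjusted p below 0.05. DDX60, a helicase that aids RNA sensing, and SAMD9, an inhibitor of translation that restricts poxviruses, were the most abundant at means of 5.67 and 3.73 FPKM. Their log2 fold changes were 0.035 (-0.091 to 0.16) and 0.069 (-0.090 to 0.23). SAMD9 measured 3.53, 3.28 and 4.05 FPKM and 3.78, 3.79 and 3.94 FPKM, 3.25 times the mean of its neighbour SAMD9L on chromosome 7. SAMD9L measured 1.04, 1.16 and 1.20 FPKM and 1.21, 1.10 and 1.18 FPKM, with overlapping groups as in SAMD9. CMPK2, a mitochondrial nucleotide kinase, lies head to head with RSAD2 on chromosome 2, and both were low. CMPK2 measured 0.45, 0.14 and 0.34 FPKM in shNC medium and 0.41, 0.39 and 0.38 FPKM in shSPP1#2 medium. Its shNC replicate 2 held 8 counts against 20.5 to 28 in the other libraries, and the log2 fold change of 0.31 became 0.003 without it.

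ISG20, an exonuclease that degrades RNA, showed how the length term bears on a value. Its counts were 53.3, 55.3 and 68.5 in shNC medium and 70.2, 64.7 and 69.5 in shSPP1#2 medium, with a log2 fold change of 0.16 (-0.18 to 0.50). Its FPKM were 1.84, 2.29 and 2.49 and 2.16, 1.98 and 2.57, and the difference on log2(FPKM + 1) was 0.015. The length implied by the pair of files differed 1.22-fold between libraries for ISG20, and up to 1.12-fold for SP110 and TRIM5.

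Membrane effectors had a median level of 22.7 FPKM, the highest of the roles. Of the 5 members 4 had a negative log2 fold change, with a median of -0.12. IFITM3, which blocks fusion of viruses in endosomes, measured 40.4, 42.1 and 34.7 FPKM in shNC medium and 40.2, 34.6 and 31.6 FPKM in shSPP1#2 medium. IFITM2 measured 13.6, 15.2 and 14.8 FPKM and 13.02, 13.1 and 14.02 FPKM, and IFITM1, which acts nearer the cell surface, 1.54, 1.88 and 1.46 FPKM and 0.73, 1.29 and 2.28 FPKM. All 3 overlapped between groups. Log2 fold changes were -0.14 (-0.34 to 0.057) for IFITM3, -0.12 (-0.30 to 0.054) for IFITM2 and -0.18 (-0.93 to 0.56) for IFITM1, and that of BST2 was -0.067 (-0.17 to 0.035). IFITM1 rests on 9.24 to 28.8 counts and reached 0.14 without shSPP1#2 replicate 1. The mean of IFITM3 was 24.3 times that of IFITM1, which lies 4397 bases away on chromosome 11. The 3 genes share 35.3% (IFITM1), 45.2% (IFITM2) and 36.4% (IFITM3) of their 31-base words with other genes, largely with one another, so the division of reads among them is uncertain. Exons on the opposite strand also cover 21.3% of the exonic bases of IFITM3.

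The 5 ADP-ribosylation genes had means from 4.05 to 15.8 FPKM. PARP14, a mono-ADP-ribosyltransferase of macrophages, measured 10.3, 9.26 and 10.7 FPKM in shNC medium and 11.1, 9.97 and 11.7 FPKM in shSPP1#2 medium, with a log2 fold change of 0.10 (-0.016 to 0.22). For PARP10 the log2 fold change was 0.074 (-0.032 to 0.18) at a mean of 15.8 FPKM, and for PARP12 -0.059 (-0.21 to 0.096) at 7.44 FPKM. PARP9 and DTX3L, which share the element printed above, measured 3.75, 3.83 and 4.2 FPKM and 9.01, 8.80 and 9.23 FPKM in shNC medium. In shSPP1#2 medium they measured 4.3, 4 and 4.23 FPKM and 9.07, 9.01 and 9.16 FPKM. DTX3L was thus 2.23 times as abundant as PARP9, with overlapping groups in both and a log2 fold change for PARP9 of 0.11 (-0.069 to 0.29).

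Of the TRIM and nuclear body genes, SP100, a core protein of PML bodies, measured 25.4, 24.2 and 24.95 FPKM in shNC medium and 23.5, 23.8 and 25.2 FPKM in shSPP1#2 medium. SP110, its relative 190213 bases away on chromosome 2, measured 6.51, 6.72 and 6.54 FPKM and 8.03, 6.59 and 6.75 FPKM, the first shSPP1#2 library being the high one. Its log2 fold change was 0.067 (-0.086 to 0.22). Exons on the opposite strand, among them those of SP140, cover 20.9% of the exonic bases of SP110, with the same limit as for XAF1. TRIM5, which binds retroviral capsids, measured 3.11, 3.21 and 3.51 FPKM and 3.61, 3.18 and 3.67 FPKM, and its log2 fold change was 0.060 (-0.14 to 0.26). TRIM22, a relative of TRIM5 on chromosome 11, measured 0.17, 0.25 and 0.34 FPKM and 0.31, 0.35 and 0.33 FPKM. TRIM5 stood 11.6 times above TRIM22 on the FPKM scale, and both overlapped between groups on log2 CPM.

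Of 55 symbols on a list of other interferon pathway genes 45 were present and 39 tested. Of these 39, 0 were called by edgeR, against 0% of all genes. DESeq2 without its independent filter also called 0, against 0.0686% of 17480 genes. At an unadjusted p below 0.05 edgeR gave 3 higher and 1 lower, against 3.45% and 3.39% of all genes. The log2 fold change was above 0 for 27 of the 39 and below 0 for 12, where 49.9% of all genes lay above 0. Its median was 0.024. Of the ligands only IFNB1 and IFNK were found, IFNB1 between 0 and 0.14 FPKM and IFNK between 0 and 0.04 FPKM. The symbols not found were the other ligands listed, and RIGI and TMEM173, other names of DDX58 and STING1, which were present. The receptor chains IFNAR1 and IFNAR2 had means of 23.1 and 23.2 FPKM, and STAT2 and IRF9 of 23.1 and 18.7 FPKM.

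The 4 pathway genes below that threshold were OAS2, OAS1, IRF7 and SOCS3. OAS2, which activates RNase L, measured 2.01, 1.86 and 2.24 FPKM in shNC medium and 3.01, 2.48 and 2.50 FPKM in shSPP1#2 medium, with a log2 fold change of 0.41 (edgeR adjusted p = 0.442). OAS1 measured 3.78, 3.80 and 3.59 FPKM and 4.79, 4.32 and 4.45 FPKM, with 0.24 (0.019 to 0.46). IRF7, which amplifies interferon transcription, had 0.12 (0.0045 to 0.23) and the feedback inhibitor SOCS3 -0.16 (-0.31 to -0.015). Groups lay apart for OAS2, OAS1 and IRF7 and overlapped for SOCS3. Those of STAT2 overlapped, at a log2 fold change of 0.073 (-0.027 to 0.17).

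Genes other than the members that hold the response element core in a promoter window had differences centred near 0. Among 423 such genes tested the median log2 fold change was 0.013, with 55.8% above 0, and among 10601 without it -0.0009, with 49.6% above 0. Within the members the corresponding medians were 0.060 over 23 with the core and 0.065 over 8 without it. The 10 tested members with at least 2 copies had a median of -0.018, with 5 of 10 above 0. These are descriptions of overlapping gene lists, with no test.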

How the data were processed

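Polyadenylated RNA was sequenced in 6 libraries. The authors deposited estimated counts per gene, not scaled, and FPKM per gene for 17513 genes. Per the submitters' processing notes, the tools include HISAT2 2.0.4, Bowtie2 2.2.5 and RSEM and the build is GRCh38.p13. Their roles, the annotation and strand use are not given here. Stray text lines (20) were dropped from the FPKM values. Mapping of columns to samples follows the sample descriptions.

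Counts were rounded, passed through filterByExpr, which kept 13555 genes, and scaled by TMM. The edgeR 4.0.16 quasi-likelihood test (R 4.3.3), shSPP1#2 minus shNC without a block, ran over all of them, and a Benjamini-Hochberg adjusted p below 0.05 was called. Standard errors and 95% intervals come from that fit, whose median standard error was 0.0645 for genes of log2 CPM at least 2. The test was also run on counts simulated from the means and dispersions of this fit, with changes placed only in more abundant genes. Detection of changes in members of low counts was therefore not checked. DESeq2 1.42.0 and limma 3.58.1 on log2(FPKM + 1) and log2(FPKM + 0.1), for genes of at least 0.5 FPKM or all, were alternatives, with other scalings, filters, a replicate block and each library left out. Gene positions, exons and 31-base words came from GENCODE v29 (GRCh38). Plots used matplotlib 3.10.9.

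Members and lists were chosen with earlier results of these data known. Every member is named. Values per library were given for the 8 of smallest p, the 6 most abundant and members of paralog clusters. The pathway genes below the unadjusted threshold were named, and the other pathway genes named do not follow the order of p. One gene of the pathway list is not reported here.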

Additional observations from a re-analysis of the deposited data

How the results depend on the processing

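No member and no other pathway gene with an adjusted p was called under any of the 16 alternatives. Some gave one to fewer than the 38 members: DESeq2 with its independent filter to 7 (and 23 of 39 pathway genes), the CPM filter to 33 and limma with the FPKM filter to 32 (and 38 pathway genes). DESeq2 without that filter, chosen after seeing the data, gave one to all. Where it was counted, the share of all genes called under an alternative ran from 0% to 0.435%. It was not counted for the other scalings, the CPM filter, or limma on log2(FPKM + 0.1) or over all genes. Of 591 member log2 fold changes under alternatives 570 kept their sign, and 27 members kept it throughout; 20 of the 21 sign changes came from leaving out a library and the other was IFI6 with a replicate block (-0.00053). With libraries left out in turn, DTX3L ran from -0.0047 to 0.023, GBP2 from -0.20 to 0.085, HERC6 from -0.10 to 0.088, IFI35 from -0.050 to 0.092, IFI6 from -0.044 to 0.077, IFIT3 from -0.098 to 0.060, IFITM1 from -0.69 to 0.14, RSAD2 from -0.046 to 0.31, SAMD9L from -0.019 to 0.14, SP100 from -0.038 to 0.022 and USP18 from -0.0080 to 0.20. The number of members at an unadjusted p below 0.05 ran from 2 to 5 with libraries left out (2 without shNC replicate 1 or 2, 3 without shSPP1#2 replicate 1) and was 2 with DESeq2, filtered or not. The share of all genes was 4.01% to 8.95% with libraries left out and 2.88% with DESeq2. With libraries left out, members whose groups did not overlap ran from 9 to 19, against 18.2% to 25% of all genes. The member median ran from 0.047 to 0.087, and that of other pathway genes from 0.020 to 0.047, the highest without shSPP1#2 replicate 3. On log2(FPKM + 1), log2(FPKM + 0.1) and log2(FPKM + 1) over all genes the member median was 0.031, 0.035 and 0.032. A pseudocount shrinks low genes, and FPKM also carries the length term and was not scaled by TMM. The part of each in the lower median was not tested. With FPKM rescaled to transcript shares (TPM) 8 members lay under 1. Whether the replicate numbers pair the samples is not given by the labels and was not tested. Deviations of same-numbered libraries correlated weakly, at 0.073, 0.096 and 0.048, but each library correlated best with its own number. Libraries of unlike number correlated at -0.092 to 0.027. With the replicate block 6 members had an unadjusted p below 0.05, against 10.8% of all genes. In that fit 59 genes of all tested (0.435%) were called, 0 of them members. Under 1 FPKM, counts limit what could be seen.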
